A study of Mus musculus with 6 samples.

Results

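Imprinted genes are transcribed mainly from the maternal or the paternal copy, and 39 of them were examined here in mouse embryonic stem (ES) cells that lack the histone chaperone HIRA. They were taken as a named list covering 17 imprinted domains or single loci. The literature assigns expression to the maternal allele for 15 of them, to the paternal allele for 23, and to either allele depending on tissue for Gnas. A gene counted as measured when a probe set, the group of short probes that the array assigns to one transcript, carried its symbol and no other. This held for 31 of the 39 genes, out of 19938 genes measured in this way on the array. Mirg, Snrpn, Ube3a and Gnas shared their probe sets with other symbols. H19, Kcnq1ot1, Slc22a3 and Zrsr1 were not matched, and these 8 genes are not analysed here. The array does not tell parental alleles apart, so each value sums both copies.

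The samples were 3 arrays of the Hira-null ES cell clone Cl34 (genotype Hira-/-) and 3 arrays of the wild-type parental ES cell line w9.5 (WT), numbered as biological replicates. Both lines were undifferentiated and were grown in serum medium with ESGRO, a preparation of leukaemia inhibitory factor, and total RNA was hybridised to Affymetrix Mouse Gene 1.0 ST arrays. The design text mentions several degrees of confluence, which the labels do not assign to arrays. There was 1 Hira-null clone, the labels do not give the deleted part of Hira, and nothing ties the replicates to separate thaws or days, so clone and genotype cannot be told apart, and the p-values speak only of the variation among these 6 arrays, which may be technical.

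Imprints are laid down as DNA methylation in the germ line at short control regions and are kept after fertilisation by the zinc finger protein ZFP57 with its corepressor TRIM28 and the maintenance methyltransferase DNMT1. One control region usually governs several neighbouring genes, often through a long noncoding RNA or through CTCF binding. Many imprinted genes set the size of the embryo and placenta: paternally expressed genes such as Igf2 tend to promote growth, and maternally expressed ones such as Cdkn1c, Grb10 and Igf2r tend to restrain it. ES cells are known for imprints that drift in culture, so that levels can differ between sister clones. HIRA is a chaperone that places histone H3.3 into chromatin independently of replication, and DNA methylation and chromatin were not measured in these samples.

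All values are deposited log2 expression values. Array medians lay between 4.93 and 5.02. The markers of the labelled cell type were high in all arrays, with Pou5f1 at 11.35 to 11.58 in Hira-null and 10.91 to 11.45 in WT arrays. The mean over 10 such markers was 10.49, 10.40 and 10.01 in Hira-null arrays, against 10.18, 10.28 and 10.31 in WT arrays. It was lowest in Hira-null replicate 3 and next lowest in WT replicate 1. The Hira transcript read 7.40, 7.05 and 6.81 in Hira-null arrays, against 7.49, 7.86 and 7.83 in WT arrays, which does not check the label, since the position of the deletion relative to these probes is not known. Over all 25142 probe sets kept after removal of low values, limma called 1, or 0.00398%, at an adjusted p under 0.05. Hira-null replicate 3 and WT replicate 1 stood apart from the other arrays for many genes, as the next results show for the imprinted ones. Differences below are Hira-null minus WT with the standard error (SE) from limma, SD is over n = 3 arrays, and adjusted p-values come from limma over all probe sets kept.

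Of the 31 genes measured, 28 lay above the filter value of 3.78 on all 6 arrays, so none of these entered through one line alone. Usp29, at 3.10 to 3.40 in Hira-null and 2.83 to 3.39 in WT arrays, and Zim1, at 3.53 to 3.63 and 3.45 to 3.56, stayed below it, and Rasgrf1 exceeded it on 1 array of each line. None of the 28 passed the test (0 with limma, 4 at an unadjusted p under 0.05, lowest adjusted p = 0.321). The 4 were 1 gene with higher values, Grb10, and 3 with lower values, Ndn, Plagl1 and Nnat. Among all genes tested 4.17% had an unadjusted p under 0.05 with higher and 6.29% with lower values, 10.5% in all, against 14.3% of the imprinted genes. Values did not overlap between the lines for these 4 and for Cdkn1c, which makes 5 of 28 genes or 17.9%. Among all 15199 genes tested 17.4% did not overlap, 7.8% with higher and 9.55% with lower Hira-null values. These shares include chromosomes 8 and 11, whose genes were broadly lower in this clone. Of 13039 genes elsewhere, 622 were higher and 357 lower at an unadjusted p under 0.05. Without overlap, 1152 of them were higher and 717 lower. The share of imprinted genes without overlap was thus close to the background. Their median difference was 0.00, against -0.01 for all genes, with a range of -0.84 to 0.61.

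Split by expressed allele, the 10 maternally expressed genes had a median difference of 0.20, with 7 positive and 3 negative values, and the 18 paternally expressed genes a median of -0.03, with 8 positive and 10 negative. These medians moved with single arrays. The maternal median was 0.11 without Hira-null replicate 3 and 0.38 without WT replicate 1, and leaving out 1 array at a time gave paternal medians of -0.185 (without Hira-null replicate 3) to -0.04 (without Hira-null replicate 1). Both genes that were higher without overlap, Grb10 and Cdkn1c, are maternally expressed. The 3 that were lower without overlap, Ndn, Plagl1 and Nnat, are paternally expressed. These are descriptions of a few genes and carry no test.

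**Figure D1:**
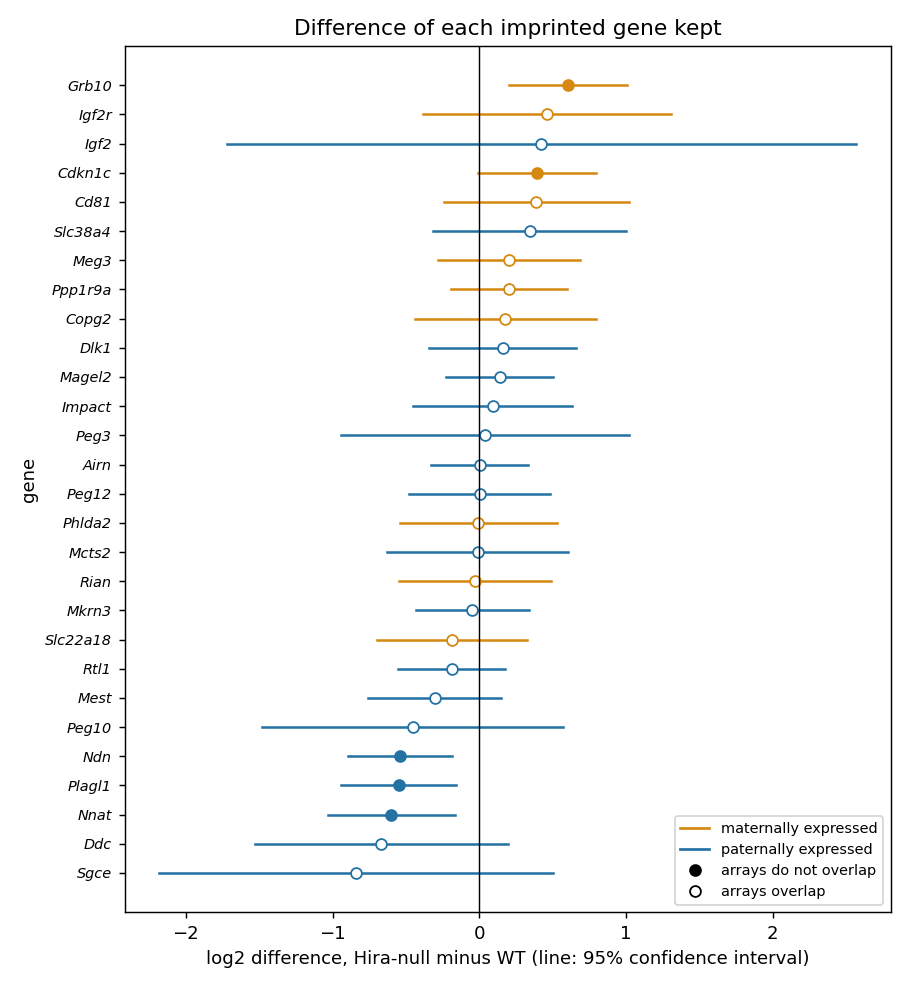
Difference between Hira-null and WT arrays for the 28 imprinted genes kept, on the log2 scale with 95% confidence intervals from limma. Filled points mark the 5 genes whose arrays did not overlap: Grb10 at 0.61 and Cdkn1c at 0.39 on the higher side, Ndn at -0.54, Plagl1 at -0.55 and Nnat at -0.60 on the lower side. Igf2 and Sgce have the widest intervals.

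Grb10, the adaptor protein that binds insulin and IGF1 receptors and restrains growth, had the largest positive difference of the 28 genes. Its values were 9.19, 9.11 and 9.63 in Hira-null arrays, against 8.70, 8.61 and 8.80 in WT arrays. Every Hira-null array lay above every WT array. The means were 9.31 ± 0.28 and 8.70 ± 0.10, a difference of 0.61 (SE 0.17, 95% confidence interval 0.21 to 1.01) or 1.52-fold, which did not pass (limma adjusted p = 0.323). Grb10 lies on chromosome 11, whose genes were broadly lower in this clone, with a median of -0.24 over 1351 genes. Only 3 of these genes had a larger difference than Grb10. On this chromosome 25 genes (1.85%) were higher without overlap and 448 (33.2%) lower.

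Cobl, which encodes an actin nucleator and is imprinted in extraembryonic tissue, is the next gene measured beyond Grb10. It read 8.61, 8.39 and 8.30 in Hira-null arrays, against 7.22, 8.09 and 7.98 in WT arrays. Its difference of 0.67 (SE 0.24, limma adjusted p = 0.417) was exceeded by 2 genes of chromosome 11, and was 0.40 without WT replicate 1. Ddc, on the other side of Grb10, encodes the decarboxylase that makes dopamine and serotonin, and its paternal expression is known from the embryonic heart. Ddc read 6.16, 6.20 and 4.99 in Hira-null arrays, against 5.99, 6.62 and 6.74 in WT arrays, and the lines overlapped. Its difference of -0.67 (SE 0.36, limma adjusted p = 0.611) rested largely on Hira-null replicate 3 and was -0.27 without that array. Commd1, a copper transport gene that hosts the imprinted gene Zrsr1 in an intron, read 5.92, 5.72 and 5.58 in Hira-null arrays, against 5.91, 6.45 and 6.55 in WT arrays. It stood at -0.56 (SE 0.20, limma adjusted p = 0.409), also on chromosome 11. Of these 4 chromosome 11 genes, Grb10 and Cobl thus went against the direction of their chromosome and Ddc and Commd1 with it.

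**Figure D2:**
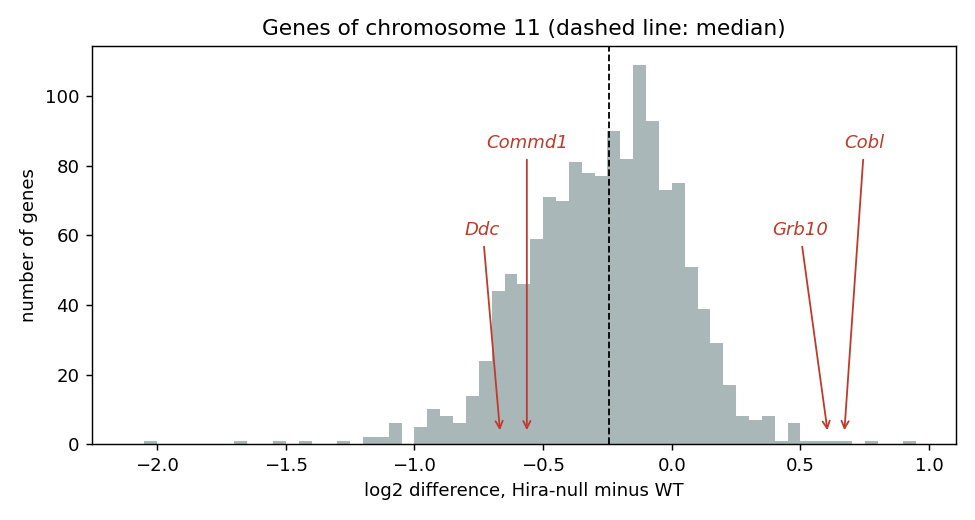
Distribution of the log2 difference, Hira-null minus WT, over 1351 genes of chromosome 11, with the number of genes per bin on the vertical axis and the median of -0.24 as a dashed line. Cobl (0.67) and Grb10 (0.61) lie at the upper end, and Ddc (-0.67) and Commd1 (-0.56) below the median.

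Cdkn1c, the cyclin-dependent kinase inhibitor p57, belongs to the Kcnq1 domain of chromosome 7, where the paternal noncoding RNA Kcnq1ot1 silences its neighbours. Cdkn1c read 7.68, 7.48 and 8.05 in Hira-null arrays, against 7.41, 7.26 and 7.36 in WT arrays. The lines did not overlap, though Hira-null replicate 2 and WT replicate 1 were close. The difference was 0.39 (SE 0.17, limma adjusted p = 0.503) or 1.31-fold, and 0.24 without Hira-null replicate 3. Phlda2, which limits placental growth, read 9.06, 8.80 and 8.20 in Hira-null arrays, against 8.81, 8.62 and 8.65 in WT arrays. It differed by -0.01 (SE 0.23), and Hira-null replicate 3, highest for Cdkn1c, was lowest for Phlda2. The transporter gene Slc22a18 read 5.48, 5.78 and 6.27 in Hira-null arrays, against 6.20, 5.95 and 5.93 in WT arrays, a difference of -0.18 (SE 0.22). The tetraspanin gene Cd81 read 10.45, 10.32 and 11.01 in Hira-null arrays, against 10.68, 9.92 and 10.01 in WT arrays, a difference of 0.39 (SE 0.27). Of these 4 maternally expressed genes Cdkn1c was the 1 without overlap, and its nearest measured neighbours, Kcnq1 (-0.03) and Slc22a18, both overlapped.

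Ndn encodes necdin, a growth suppressor of postmitotic neurons, and lies in the Snrpn-Ube3a domain, whose human counterpart is lost in Prader-Willi syndrome. Ndn read 6.67, 6.75 and 6.65 in Hira-null arrays, against 7.48, 7.03 and 7.18 in WT arrays. The 3 Hira-null arrays lay close together and below every WT array. The difference was -0.54 (SE 0.15, limma adjusted p = 0.321) or 1.45-fold lower. The 3 other paternally expressed genes measured in the domain overlapped between the lines. Magel2, a MAGE family gene, averaged 5.04 ± 0.23 in Hira-null and 4.90 ± 0.10 in WT arrays. Mkrn3, a makorin zinc finger gene, averaged 4.66 ± 0.25 and 4.70 ± 0.12, and Peg12, of the Frat family of WNT pathway genes, 6.35 ± 0.17 and 6.35 ± 0.35. Magel2, Mkrn3 and Peg12 are also the next genes measured beyond Ndn in gene order.

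Atp10a, the measured gene on the other side of Ndn, encodes a phospholipid flippase that was first described as maternally expressed and later found to be imprinted in some tissues only. It had the largest negative difference among 41 further imprinted genes that passed the filter. Ube3a and Snrpn, which are not analysed here, lie between Atp10a and Ndn. Atp10a read 4.94, 4.86 and 4.33 in Hira-null arrays, against 6.52, 5.89 and 6.12 in WT arrays. Every Hira-null array lay below every WT array, and the difference was -1.47 (SE 0.23, limma adjusted p = 0.220). It did not pass the test.

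Plagl1, a zinc finger transcription factor gene that induces cell cycle arrest and lies on chromosome 10, was dim on this array. It read 4.13, 4.45 and 4.59 in Hira-null arrays, against 5.11, 4.92 and 4.79 in WT arrays. Hira-null replicate 3 and WT replicate 3 came nearest each other without overlap, and the difference was -0.55 (SE 0.17, limma adjusted p = 0.355) or 1.46-fold lower. The 6 genes measured next to Plagl1, from Utrn to Fuca2, all overlapped between the lines.

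Nnat encodes neuronatin, a small membrane protein of the endoplasmic reticulum, and sits inside an intron of Blcap on chromosome 2. Nnat read 5.14, 5.20 and 5.23 in Hira-null arrays, against 6.14, 5.75 and 5.48 in WT arrays. The Hira-null arrays were nearly alike, while the WT arrays spread from 5.48 to 6.14. The difference was -0.60 (SE 0.18, limma adjusted p = 0.360) or 1.52-fold lower. The host gene Blcap, singled out after its values were seen, went the opposite way. It read 7.22, 7.20 and 7.53 in Hira-null arrays, against 6.96, 6.89 and 7.04 in WT arrays, a difference of 0.35 (SE 0.14, limma adjusted p = 0.459). Neither difference passed the test.

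**Figure D3:**
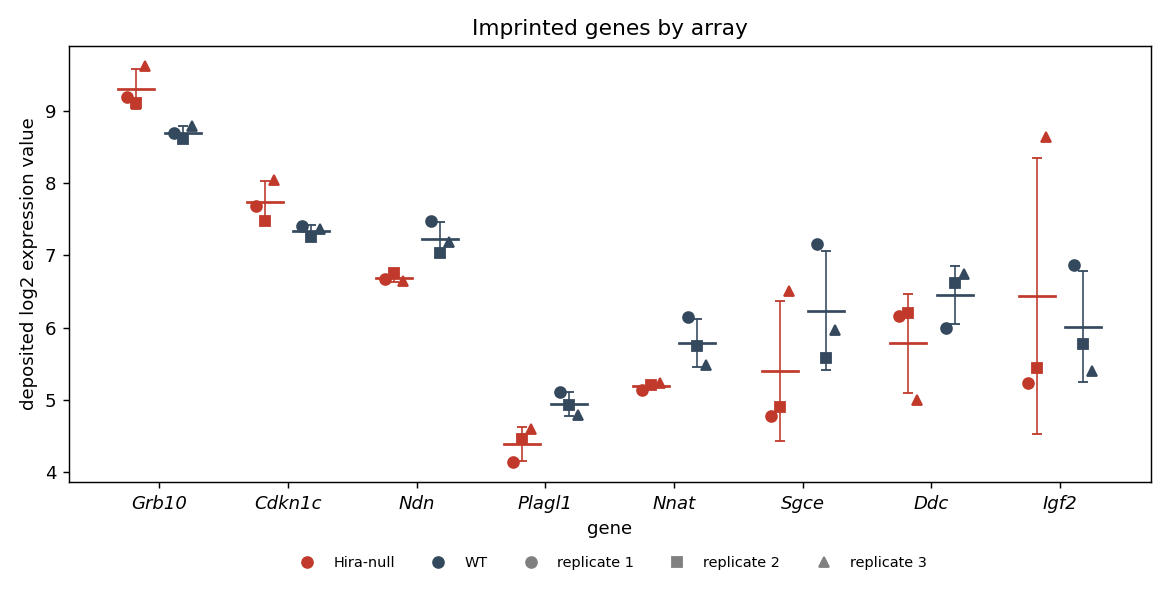
Deposited log2 values of 8 imprinted genes on the 3 Hira-null and 3 WT arrays, with the mean as a bar, SD as whiskers and the replicate number as the marker shape. Grb10 and Cdkn1c are higher and Ndn, Plagl1 and Nnat lower in all Hira-null arrays, while Sgce, Ddc and Igf2 overlap, with Hira-null replicate 3 far from the other Hira-null arrays.

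Promoter windows from RefSeq (build GRCm38.p6, 250 bases before to 50 after a transcription start, written along the gene's strand) were available for 33 of the 39 genes. They are shown for 4 of the 5 genes without overlap (Cdkn1c was not matched), since promoters of imprinted genes often overlap control regions, and capitals mark TGCCGC or its reverse complement GCGGCA, the core motif bound by ZFP57 when methylated. Both strands were searched. The Grb10 window is the upstream one of 2 starts, at chr11:12037371-12037670 on the minus strand, Plagl1 lies at chr10:13090582-13090881, Nnat at chr2:157559828-157560127 and Ndn at chr7:62348027-62348326, these 3 on the plus strand.
Grb10: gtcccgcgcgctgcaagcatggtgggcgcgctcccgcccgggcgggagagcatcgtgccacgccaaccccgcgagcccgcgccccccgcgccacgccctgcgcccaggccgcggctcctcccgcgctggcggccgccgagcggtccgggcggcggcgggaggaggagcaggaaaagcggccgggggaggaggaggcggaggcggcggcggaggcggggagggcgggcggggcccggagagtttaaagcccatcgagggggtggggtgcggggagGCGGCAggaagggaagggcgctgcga
Plagl1: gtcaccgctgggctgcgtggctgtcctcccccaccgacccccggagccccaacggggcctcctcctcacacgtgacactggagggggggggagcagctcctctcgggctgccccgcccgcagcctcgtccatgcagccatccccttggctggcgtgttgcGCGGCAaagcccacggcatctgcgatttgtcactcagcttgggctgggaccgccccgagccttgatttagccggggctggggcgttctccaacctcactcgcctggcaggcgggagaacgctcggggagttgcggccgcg
Nnat: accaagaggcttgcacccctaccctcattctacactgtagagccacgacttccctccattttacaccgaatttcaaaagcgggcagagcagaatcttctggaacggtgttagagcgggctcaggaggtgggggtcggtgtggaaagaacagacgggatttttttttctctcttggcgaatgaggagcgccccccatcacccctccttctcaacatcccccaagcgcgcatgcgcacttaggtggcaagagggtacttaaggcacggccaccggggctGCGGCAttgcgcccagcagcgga
Ndn: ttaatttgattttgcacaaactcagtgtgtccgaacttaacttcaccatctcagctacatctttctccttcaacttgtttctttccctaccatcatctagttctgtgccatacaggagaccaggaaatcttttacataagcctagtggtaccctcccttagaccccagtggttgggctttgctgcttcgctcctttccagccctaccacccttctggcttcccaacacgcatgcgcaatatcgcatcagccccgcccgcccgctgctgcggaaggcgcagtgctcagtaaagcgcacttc
The windows shown of Grb10, Plagl1 and Nnat each held the motif at 1 place, and that of Ndn held none. The other Grb10 window, at chr11:12027922-12028221, held no motif and 9 CpG dinucleotides. Over 32851 promoter windows of the same length 11.6% held the motif, against 22.0% (11 of 50) of the imprinted genes' windows, some of which overlap each other. The Grb10 window shown had 45 CpG dinucleotides, Plagl1 26, Nnat 17 and Ndn 11, where the median over all windows was 7 and over the imprinted genes' windows 11.5. The motif contains a CpG, so its frequency follows CpG content, and a match does not show that the site is bound or methylated.

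The Dlk1-Meg3 domain of chromosome 12, a region whose silencing is a known defect of some pluripotent lines, was active in both. Meg3, a long noncoding RNA made from the maternal copy, read 8.59, 8.56 and 9.06 in Hira-null arrays, against 8.85, 8.45 and 8.30 in WT arrays. Rian, the noncoding RNA that hosts small nucleolar RNAs, read 6.50, 6.04 and 5.77 in Hira-null arrays, against 6.31, 6.22 and 5.87 in WT arrays. The lines overlapped for both RNAs, with differences of 0.20 (SE 0.21) for Meg3 and -0.03 (SE 0.22) for Rian. Dlk1, a paternally expressed membrane ligand that acts on Notch signalling, read 6.17, 6.43 and 6.86 in Hira-null arrays, against 6.58, 6.25 and 6.15 in WT arrays. Rtl1, a retrotransposon-derived gene of placental capillaries, was dim, with 4.53, 4.56 and 4.22 in Hira-null arrays, against 4.45, 4.65 and 4.77 in WT arrays. Dlk1 differed by 0.16 (SE 0.21) and Rtl1 by -0.19 (SE 0.15), and both overlapped. The 95% confidence interval for Meg3, -0.28 to 0.69, shows the range of differences that these arrays allow, so the lines are not shown to be alike.

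Dio3, the deiodinase that inactivates thyroid hormone, lies at the far end of the same domain and is preferentially expressed from the paternal copy. It was the further imprinted gene with the largest positive difference. Dio3 read 6.38, 5.44 and 6.27 in Hira-null arrays, against 4.23, 5.01 and 4.25 in WT arrays. The 2 groups did not overlap, with Hira-null replicate 2 and WT replicate 2 nearest each other. The difference was 1.53 (SE 0.32, limma adjusted p = 0.233) and did not pass. Dio3 thus stood apart from Dlk1, Meg3 and Rian in the size of its difference, although differences between genes were not tested. The promoter windows of Dio3, at chr12:110278980-110279279 on the plus strand, and of Atp10a, at chr7:58657952-58658251 on the plus strand, are shown for comparison with those above. Dio3 and Atp10a had the largest differences in either direction among the further imprinted genes.
Dio3: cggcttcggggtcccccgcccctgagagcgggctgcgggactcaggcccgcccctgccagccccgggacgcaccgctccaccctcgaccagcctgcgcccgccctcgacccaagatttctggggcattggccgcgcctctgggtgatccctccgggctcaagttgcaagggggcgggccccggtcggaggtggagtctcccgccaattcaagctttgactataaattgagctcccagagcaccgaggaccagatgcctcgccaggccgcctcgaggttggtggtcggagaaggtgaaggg
Atp10a: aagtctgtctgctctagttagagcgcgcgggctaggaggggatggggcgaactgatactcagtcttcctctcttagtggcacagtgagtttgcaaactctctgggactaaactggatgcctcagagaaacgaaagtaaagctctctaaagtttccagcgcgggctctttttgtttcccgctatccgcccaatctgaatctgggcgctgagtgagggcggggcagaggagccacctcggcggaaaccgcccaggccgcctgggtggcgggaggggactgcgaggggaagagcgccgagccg
Neither window held the motif. The Dio3 window had 25 CpG dinucleotides and 81.6% of all windows had fewer, and the Atp10a window had 20, with fewer in 73.5% of windows.

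**Figure D4:**
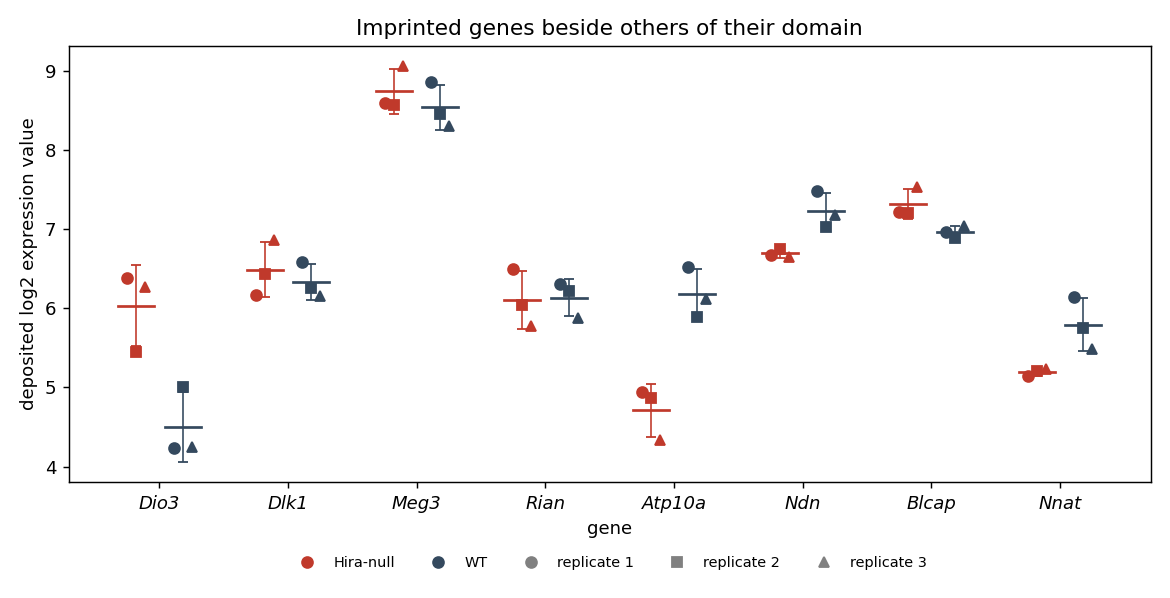
Deposited log2 values of genes from 3 imprinted regions on the 3 Hira-null and 3 WT arrays, with the mean as a bar and SD as whiskers. Dio3 separates the lines while Dlk1, Meg3 and Rian of its domain overlap. Atp10a and Ndn, neighbours only among the measured genes, are both lower in Hira-null arrays. Blcap is higher where Nnat, inside it, is lower.

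The maternal transcripts of the Dlk1-Meg3 domain also carry a large cluster of microRNAs, and 40 of their precursors had a probe set of their own, out of 60 between Meg3 and Mirg. Of these, 21 passed the filter and 0 passed the test with limma (0 also at an unadjusted p under 0.05, lowest adjusted p = 0.674). None of the 21 was free of overlap, where 17.4% of all genes were, and their median difference was -0.05. Over all genes 10.5% had an unadjusted p under 0.05. Levels over the 40 probe sets ran from 1.60 to 7.99, with a median of 3.94, near the filter value, so most of these probe sets say little. Several of the microRNAs are made from the strand opposite to Rtl1 and are known to cleave its transcript. Their mature sequences, from RefSeq on GRCm38.p6, are given with the seed (bases 2 to 8) in capitals, since they tie the maternal transcript to a paternal target, and no 2 of the 4 share a seed.
miR-431-5p: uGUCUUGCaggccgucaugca
miR-127-3p: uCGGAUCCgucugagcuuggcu
miR-434-3p: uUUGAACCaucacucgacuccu
miR-136-5p: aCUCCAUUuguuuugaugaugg
They lie on the plus strand at chr12:109590459-109590479, chr12:109592888-109592909, chr12:109594565-109594586 and chr12:109595331-109595352, within the span of Rtl1. The Mir127 precursor read 4.94, 4.80 and 4.55 in Hira-null arrays, against 4.95, 5.06 and 4.85 in WT arrays. Mir431 read 4.79, 5.10 and 4.87 in Hira-null arrays, against 5.03, 5.29 and 5.11 in WT arrays. Their differences of -0.19 (SE 0.15) and -0.22 (SE 0.14) overlapped between the lines, and Mir434 and Mir136 were below the filter on all arrays.

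Igf2, the paternally expressed fetal growth factor, had the largest SE of the 28 genes. It read 5.23, 5.44 and 8.64 in Hira-null arrays, against 6.87, 5.77 and 5.40 in WT arrays. Hira-null replicate 3 was by far the highest and WT replicate 1 the next, while the other 4 arrays lay between 5.23 and 5.77. The difference was 0.42 with an SE of 0.91 and an interval of -1.72 to 2.57 (limma adjusted p = 0.932). Without Hira-null replicate 3 it turned to -0.68. Igf2r, the maternally expressed receptor that clears IGF2, ranged from 8.32 to 9.61 in Hira-null and from 8.09 to 8.67 in WT arrays, with the same 2 arrays highest. Its difference of 0.46 (SE 0.36) was 0.05 without Hira-null replicate 3 and 0.70 without replicate 2. Airn, the noncoding RNA that silences Igf2r on the paternal copy, was dim at 4.13 to 4.19 in Hira-null and 3.95 to 4.34 in WT arrays and differed by 0.00 (SE 0.14).

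The Peg10-Sgce pair on chromosome 6 is transcribed in opposite directions from one shared imprinted promoter region. Sgce, which encodes epsilon-sarcoglycan, read 4.77, 4.90 and 6.51 in Hira-null arrays, against 7.16, 5.58 and 5.96 in WT arrays. Hira-null replicates 1 and 2 lay below all WT arrays and replicate 3 did not. The difference of -0.84 (SE 0.57, limma adjusted p = 0.694) was the lowest of the 28 genes and was -1.40 without Hira-null replicate 3, -0.53 without Hira-null replicate 1 and -0.38 without WT replicate 1. Peg10, a retrotransposon-derived gene needed for the placenta, had the same pattern, with a range of 8.50 to 10.28 in Hira-null arrays, replicate 3 highest, against 9.49 to 9.94 in WT arrays. Its difference of -0.45 (SE 0.43) depended on the array left out, at -0.98 without Hira-null replicate 3, -0.29 without replicate 2 and -0.09 without replicate 1. Ppp1r9a, a maternally expressed neighbour that encodes the actin-binding protein neurabin, averaged 5.88 ± 0.21 in Hira-null and 5.68 ± 0.20 in WT arrays and differed by 0.20 (SE 0.17).

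Peg3, a paternally expressed zinc finger gene, ranged from 6.41 to 7.39 in Hira-null and from 6.32 to 7.67 in WT arrays. It too was highest in WT replicate 1 and Hira-null replicate 3, and its difference was 0.04 (SE 0.42). Mest, a paternally expressed gene of the alpha/beta hydrolase family, ranged from 8.40 to 8.72 in Hira-null and from 8.69 to 9.26 in WT arrays, a difference of -0.30 (SE 0.19). Copg2, its maternally expressed neighbour and a subunit of the COPI vesicle coat, averaged 9.19 ± 0.37 in Hira-null and 9.01 ± 0.39 in WT arrays. The amino acid transporter gene Slc38a4 averaged 10.37 ± 0.49 and 10.02 ± 0.32, with a difference of 0.34 (SE 0.28). Impact, a regulator of translation under amino acid shortage, averaged 9.51 ± 0.46 in Hira-null and 9.41 ± 0.07 in WT arrays. Mcts2, an intronless copy of the X-linked gene Mcts1 whose signal may not be separate from its parent gene, averaged 8.14 ± 0.24 and 8.15 ± 0.49. None of these 6 genes was free of overlap.

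Many imprinted genes varied together between arrays of the same line. For 12 of the 28 genes (42.9%) Hira-null replicate 3 and WT replicate 1 were the 2 highest arrays, against 15.4% of all genes. The 12 were Igf2, Igf2r, Peg3, Peg10, Sgce, Cd81, Slc22a18, Meg3, Dlk1, Copg2, Airn and Slc38a4. Hira-null replicate 3 was the highest array for 13 of the 28 genes (46.4%, against 24.6% of all genes). These were 8 of the 10 maternally and 5 of the 18 paternally expressed ones. It was the lowest array for 6 of the 28 (21.4%, against 26.0% of all genes). The median deviation from the gene mean over the 28 genes was -0.07, -0.08 and 0.34 in Hira-null arrays, against 0.19, -0.06 and -0.08 in WT arrays. For all genes these medians lay between -0.03 and 0.01. In Hira-null replicate 3 the median was 0.47 over the 10 maternally and -0.05 over the 18 paternally expressed genes.

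**Figure D5:**
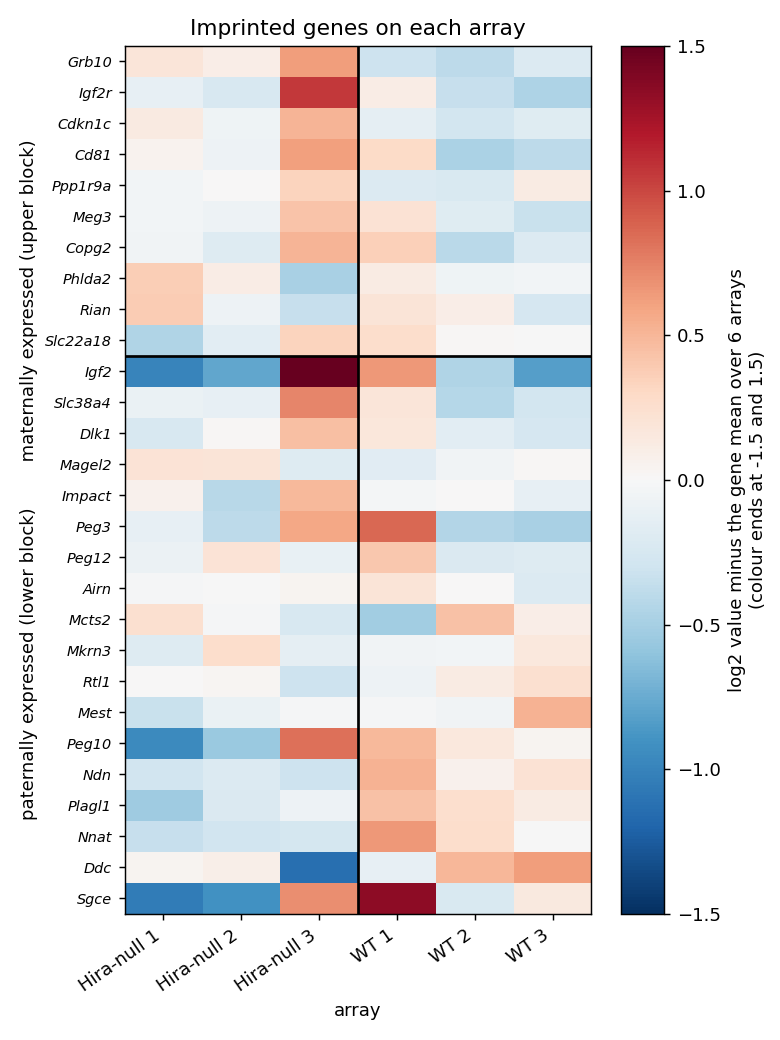
Log2 value of each array minus the mean of that gene, for 10 maternally expressed (upper block) and 18 paternally expressed genes (lower block), with Hira-null arrays to the left of WT arrays. Hira-null replicate 3 and WT replicate 1 are the 2 highest arrays for Igf2, Peg3, Peg10, Sgce and Igf2r, while Ndn, Plagl1 and Nnat are blue in all Hira-null arrays.

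Markers of other cells that a culture might hold moved partly with these arrays, and the endoderm and neural means separated the lines. Of 18 fibroblast or feeder markers 14 passed the filter, and their mean level was 6.18, 6.37 and 6.66 in Hira-null arrays, against 6.89, 6.45 and 6.43 in WT arrays, highest in WT replicate 1 and next in Hira-null replicate 3. The 14 did not all move alike: 6 had positive and 8 negative differences. Thy1 was higher without overlap, and Col1a2, Vim and Twist2 were lower without overlap. Among all genes 7.8% were higher and 9.55% lower without overlap. The fibroblast genes Postn, Lum, Dcn and S100a4 were below the filter. Primitive and visceral endoderm markers (8 of 10 passing) averaged 5.28, 5.46 and 5.57 in Hira-null arrays, against 6.13, 5.83 and 5.70 in WT arrays, with Afp and Ttr below the filter. Of these 8 markers, 7 had negative differences and 1 a positive one, and 4 were lower without overlap. The 4 were Cubn (-1.48), Dab2 (-0.83), Gata6 (-0.55) and Apoa1 (-0.31), and none of the 8 passed the test with limma. Trophoblast markers (4 of 8 passing, Elf5 and Tpbpa below the filter) averaged 5.61, 5.70 and 5.69 in Hira-null arrays, against 5.48, 5.52 and 5.70 in WT arrays. Neural markers (5 of 7 passing, Dcx below the filter) averaged 6.01, 5.86 and 5.56 in Hira-null arrays, against 6.26, 6.39 and 6.38 in WT arrays. Among them Pax6 was lower without overlap (-1.21). The lines overlapped for Nes (-0.87), Neurod1 (-0.61), Tubb3 (-0.18) and Sox1 (0.20), the last with a positive difference. In bulk RNA, fewer cells of a type and less RNA per cell cannot be told apart. The part of other cells in the imprinted genes' values was not tested. With both Hira-null replicate 3 and WT replicate 1 left out, differences were 0.44 for Grb10 and 0.27 for Cdkn1c. They were -0.40 for Ndn, -0.56 for Plagl1 and -0.45 for Nnat. Their signs could not turn here, since these genes were singled out for arrays without overlap.

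Of 50 further genes with reported imprinting, some of it limited to single tissues, 45 had a probe set of their own and 41 passed the filter. None passed the test (0 of 41 with limma, 7 at an unadjusted p under 0.05, 4 higher and 3 lower). Over all genes 10.5% had such a p. Without overlap there were 4 higher genes (Dio3, Cobl, Blcap and Sfmbt2) and 3 lower ones (Atp10a, Dhcr7 and Smoc1), against 17.4% of all genes. By overlap, 7 of 41 is thus no more than the background. At an unadjusted p under 0.05, 7 of 41 is a larger share than 10.5%, and this excess was not tested. The median difference was 0.05. Sfmbt2, a Polycomb-related gene needed for trophoblast, read 7.16, 7.42 and 7.16 in Hira-null arrays, against 6.92, 6.42 and 6.87 in WT arrays, a difference of 0.51 (SE 0.18, limma adjusted p = 0.409). Dhcr7, which catalyses the last step of cholesterol synthesis, read 8.33, 8.29 and 7.03 in Hira-null arrays, against 8.96, 8.85 and 8.57 in WT arrays, a difference of -0.91 (SE 0.35, limma adjusted p = 0.452), and -0.48 without Hira-null replicate 3.

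Among 30 regulators of imprints 26 passed the filter and 0 passed the test with limma, with 3 at an unadjusted p under 0.05, where 10.5% of all genes had such a p. The same 3, Dppa3, Suz12 and Eed, were without overlap, as were 17.4% of all genes. Dppa3, also called Stella, protects maternal imprints in the fertilised egg. It read 4.83, 4.93 and 4.53 in Hira-null arrays, against 6.83, 6.67 and 6.60 in WT arrays, a difference of -1.94 (SE 0.15, limma adjusted p = 0.0526). Its second probe set, at -2.30, was the 1 probe set called on the array (limma adjusted p = 0.0217), and signal from retrocopies of the gene may not be separate. No probe set was called (0 with limma) when either Hira-null replicate 1, Hira-null replicate 3 or any WT array was left out. The Polycomb subunit genes Suz12, on chromosome 11, and Eed differed in opposite directions, at -0.69 (SE 0.17) and 0.61 (SE 0.22), and Eed stood at 0.37 without WT replicate 1. The readers and keepers of imprints overlapped between the lines. Zfp57 differed by -0.33 (SE 0.36), Trim28 by -0.13 (SE 0.23) and Zfp445, a zinc finger gene that acts beside Zfp57, by 0.33 (SE 0.22). Without Hira-null replicate 3 Zfp57 stood at -0.0083 and Trim28 at 0.082, and without Hira-null replicate 1 Zfp445 stood at 0.14. Dnmt1 averaged 9.05 ± 0.18 in Hira-null and 9.02 ± 0.10 in WT arrays. Ctcf, on chromosome 8, whose genes were also broadly lower in this clone, differed by -0.35 (SE 0.24), and by -0.12 without Hira-null replicate 3. Dnmt3l, the cofactor of de novo methylation, differed by 0.61 (SE 0.39), and by 0.19 without WT replicate 1.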

How the data were processed

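Expression was measured on 6 Affymetrix Mouse Gene 1.0 ST arrays, 3 of the Hira-null clone and 3 of the WT line. The deposited table holds log2 values for 35557 probe sets, with a range of 1.14 to 14.03. GCRMA is named for them per the submitters' processing notes, a method that corrects background and brings arrays to a common distribution, which hides a shift common to most genes. No version or build is given in the sources used.

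Symbols came from the platform annotation (21789 probe sets with 1 symbol, 1621 with several, 12147 unnamed here), and 21698 were matched by Entrez identifier to a GRCm38.p6 gene table. Probe sets above 3.78, the 30th percentile of all values, on 3 or more of the 6 arrays were retained (25142). The 2 lines were compared in limma 3.58.1 under R 4.3.3 by lmFit and eBayes, two-sided and without covariates, and p-values were adjusted by Benjamini-Hochberg across the retained probe sets. The procedure was tested on simulated data with independent noise on each array, which does not cover deviations shared between arrays. Where a gene had several probe sets, the brightest on average stood for it. Precision is limited by the number of arrays, the median SE over the 28 imprinted genes being 0.214.

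The members and gene lists were chosen with earlier results of these data known. Every measured member is named. Values on every array are given for members without overlap, with a difference of at least 0.5 in size or an unadjusted p under 0.05, and for the measured members of the Igf2-H19, Dlk1-Meg3 and Kcnq1 domains, and others are given by mean or range. Up to 6 genes with the smallest p were named from each further list, with the central imprint regulators. Alternatives were other filters, normalizations, variance models, arrayWeights, a replicate block, averaged probe sets and leaving out arrays.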

Additional observations from a re-analysis of the deposited data

How the results depend on the processing

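With 3 arrays per line, only large or very even differences could pass the test. None of the 28 imprinted genes was called under any alternative run. The 1 probe set called on the array became 2 with the stricter filter, 2 with median centring, 5 with arrayWeights, 0 with the replicate block, 0 when both WT replicate 1 and Hira-null replicate 3 were left out, and 0 to 41 when 1 array was left out, 41 without Hira-null replicate 2. Replicate numbers did not pair the arrays: deviations of same-numbered arrays correlated at -0.34, 0.17 and -0.10, so the block result is given only here. The stricter filter retained 23 of the imprinted genes.

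The number of imprinted genes without overlap, 5, ranged from 5 to 14 when 1 array was left out, with 10 without Hira-null replicate 3 (29.0% of all genes) and 14 without WT replicate 1 (27.8% of all genes). It was 20 without both, where 41.0% of all genes did not overlap, since fewer arrays overlap less often. Leave-one-out ranges were 0.45 to 0.71 for Grb10 and 0.24 to 0.52 for Cdkn1c. They were -0.64 to -0.42 for Ndn, -0.65 to -0.42 for Plagl1 and -0.76 to -0.43 for Nnat. These genes were singled out for arrays without overlap, so leaving out or weighting arrays could not turn their sign. They also kept it under the other alternatives that retained them (Plagl1 was below the stricter filter).

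Other genes turned sign, most of them with differences under 0.2 in size but also Igf2 at 0.42, and the cause was not tested. Under arrayWeights this gave 0.14 for Phlda2, 0.10 for Rian, 0.0029 for Mkrn3 and -0.083 for Impact. With both WT replicate 1 and Hira-null replicate 3 left out, values were -0.25 for Igf2, 0.295 for Phlda2, 0.225 for Rian and -0.12 for Impact. Quantile normalization gave -0.014 for Peg12 and 0.012 for Mcts2, and median centring -0.0033 for Peg12 and -0.0033 for Airn. With 1 array left out, Igf2 ranged from -0.68 to 1.03, Phlda2 from -0.19 to 0.24, Rian from -0.23 to 0.14, Dlk1 from -0.027 to 0.32, Peg3 from -0.24 to 0.48, Mkrn3 from -0.19 to 0.037 and Peg12 from -0.105 to 0.205. Copg2 ranged from -0.035 to 0.40, Airn from -0.097 to 0.098, Impact from -0.13 to 0.33, Mcts2 from -0.275 to 0.205, Trim28 from -0.30 to 0.082 and Dnmt1 from -0.027 to 0.13. Dppa3 passed the test under 4 of the alternatives that kept all arrays, with limma adjusted p = 0.0364 under the stricter filter, 0.0460 with median centring, 0.0199 with arrayWeights and 0.00759 with averaged probe sets. Over all alternatives run its adjusted p from limma lay between 0.00759 and 0.524.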
